A study of Mus musculus with 2 samples.

Results

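Accessible regions inside gene bodies that were found in the library titled control and not in the library titled treatment are described here, for mouse CD8+ T cells profiled by ATAC-seq, an assay that reads open DNA by where a transposase can cut it and add sequencing adapters. A region was counted when its control interval shared not even 1 bp with a treatment interval and its summit lay inside the span of a protein-coding gene, more than 1 kb from every gene end, on chromosomes 1 to 19. This gave 12472 control-only gene-body peaks, out of 38950 control peaks in gene bodies and 83295 control peaks in all on these chromosomes, against 63351 treatment peaks. With the control list shortened to the treatment list's length, keeping its most significant peaks, the number was 5344. These peaks were chosen by their presence in the control list and their absence from the treatment list, so their number and share are a description and were not tested.

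The series holds 1 library titled treatment and 1 titled control, both from CD8+ T cells, and its title calls them Peml-1 CD8+ T cells. A second label field gives "Combined treatment" for the library titled treatment and "Treatment" for the one titled control, so neither field tells what was applied, and strain, age and genotype are not stated. The libraries were not replicated, so no p-value is given and every difference below is one between 2 libraries, not between conditions. Read totals are not stated. Where coverage is given, it is the whole number of reads at a peak's summit, worked out from the authors' deposited fold enrichment and −log10 p-value of that peak, which succeeded for 99.96% of treatment and 99.99% of control peaks. The lowest local background of a peak was 15.05 reads in treatment and 14.15 in control. Divided by the narrowest peak width of each library, 186 and 176 bp, the treatment value was 1.006 times the control value. Whether this reflects the depth of the libraries was not tested. Of 8 CD8+ T cell markers 7 were found by symbol, among them Cd3e, Cd8a and Lck, and all 7 had peaks in both libraries. Of the markers of other cells, Ms4a1, Adgre1, Siglech, Ncr1, Klrb1c, Klra8, Tyr, Hbb-bs and Cdh5 had none in either library. Pax5, a B cell factor, had 9 peaks in the treatment library, against 10 in the control library, and Sox10, a melanocyte factor, had 0 and 4. Over all B cell markers there were 23 peaks in treatment and 31 in control, and over all melanocyte markers 8 and 14; their part in the results below was not tested.

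Peaks inside gene bodies lie mostly in introns, which in mammals hold many of the enhancers that act on the gene itself or on its neighbours. Enhancers are bound by transcription factors that displace nucleosomes, and in T cells such factors include the Runx, Ets, TCF and AP-1 families. Long genes of signalling and adhesion proteins often carry many such elements. An accessible region is not by itself a proof of enhancer activity, and a gene that holds one need not be its target.

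A small part of the control-only peaks sat on or near start sites inside genes. Only for these could sequence be read here, from the promoter windows of RefSeq (assembly GRCm38.p6, 250 bases before to 50 bases after a start). Within 300 bp of an annotated start lay 170 of the 12472 control-only peaks, 1.36% (95% Wilson interval 1.17 to 1.58%), against 1383 of 26478 shared control gene-body peaks, 5.22% (4.96 to 5.50%). There were 113 windows with a control-only summit, and 72 of them belonged to the gene whose body held the peak. The 4 host genes with the strongest such peaks by fold enrichment, and Mcf2l because it returns below, are shown. The coordinates given for these genes are those of the promoter windows, not of the peaks. Fcrl6, an Fc receptor-like protein that in humans is found on cytotoxic lymphocytes, had a peak of 21.7-fold and 339 reads over its internal start at chr1:172602502-172602801, minus strand. Slit2, a secreted guidance protein, had one of 10.6-fold at chr5:47982905-47983204, plus strand. Atp2b2, a calcium pump of the plasma membrane, had one of 9.04-fold with its summit in the window chr6:113934632-113934931, minus strand. That summit lay 239 bp from the start site, and the peak itself did not reach the start. Creb5, a leucine zipper factor, had one of 8.91-fold at chr6:53573124-53573423, plus strand. Mcf2l, an exchange factor for small GTPases, had one of 8.42-fold and 199 reads at chr8:12949173-12949472, plus strand. Capitals mark matches on either strand to letters that several factor families favour. For AP-1 these were TGANTCA. The Runx letters were TGTGGT. For Ets they were CCGGAAGT. The TCF letters were CTTTGA. For the TATA box they were TATAAA. None of these strings lies inside another.
Fcrl6: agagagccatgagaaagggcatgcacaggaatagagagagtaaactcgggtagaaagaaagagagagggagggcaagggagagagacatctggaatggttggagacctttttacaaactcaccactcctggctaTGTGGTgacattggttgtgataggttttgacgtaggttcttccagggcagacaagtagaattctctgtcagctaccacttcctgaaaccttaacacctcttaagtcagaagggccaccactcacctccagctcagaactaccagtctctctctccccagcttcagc
Slit2: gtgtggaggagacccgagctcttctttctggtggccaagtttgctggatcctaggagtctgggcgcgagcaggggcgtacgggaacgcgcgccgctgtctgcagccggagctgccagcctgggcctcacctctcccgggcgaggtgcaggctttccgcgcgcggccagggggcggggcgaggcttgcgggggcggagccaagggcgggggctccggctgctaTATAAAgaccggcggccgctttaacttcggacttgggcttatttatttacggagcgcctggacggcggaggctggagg
Atp2b2: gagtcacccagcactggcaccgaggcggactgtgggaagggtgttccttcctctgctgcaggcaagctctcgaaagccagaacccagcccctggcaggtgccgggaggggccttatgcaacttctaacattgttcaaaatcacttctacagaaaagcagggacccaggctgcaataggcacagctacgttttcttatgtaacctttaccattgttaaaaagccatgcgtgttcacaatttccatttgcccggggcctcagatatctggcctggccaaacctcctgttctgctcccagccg
Creb5: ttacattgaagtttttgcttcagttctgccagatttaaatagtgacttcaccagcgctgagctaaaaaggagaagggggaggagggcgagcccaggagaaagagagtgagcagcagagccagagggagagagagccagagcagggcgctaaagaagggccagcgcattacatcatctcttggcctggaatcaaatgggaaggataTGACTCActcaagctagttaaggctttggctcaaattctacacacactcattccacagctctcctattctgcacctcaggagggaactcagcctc
Mcf2l: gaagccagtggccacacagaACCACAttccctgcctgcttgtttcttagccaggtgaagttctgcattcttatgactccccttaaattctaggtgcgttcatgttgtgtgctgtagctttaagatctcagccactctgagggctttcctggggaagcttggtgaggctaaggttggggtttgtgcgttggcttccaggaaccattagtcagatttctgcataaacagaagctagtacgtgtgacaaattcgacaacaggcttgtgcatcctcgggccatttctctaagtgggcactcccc

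These windows differ in kind. The Fcrl6 and Mcf2l windows each hold the Runx letters, have 2 and 5 CpG pairs, and are 49% and 49.7% G or C. Another Mcf2l window with a control-only summit, of 3.70-fold, has 22 CpG pairs, 67.7% G or C and none of the letters. The Creb5 window holds the AP-1 letters and 4 CpG pairs. The Slit2 window is CpG-rich, with 30 pairs, 68% G or C and a TATA box match, and the Atp2b2 window holds none of the letters. Over the 113 windows with a control-only summit the median was 10 CpG pairs and 56.7% G or C, against 20.5 and 62% in the 1154 windows with a shared gene-body summit, and 7 and 53% in all 31396 windows on these chromosomes. The Ets letters stood in 0.885% of the windows with a control-only summit, 6.41% of those with a shared summit and 3.95% of all. Among 113 windows the first of these shares rests on very few, and the difference was not tested. The Runx letters stood in 18.6%, 15.7% and 16.7%, the AP-1 letters in 9.73%, 6.15% and 7.84%, the TCF letters in 15.9%, 11.01% and 15.9%, and the TATA letters in 7.96%, 4.94% and 13.6%. A match is a string of letters and not a bound site, and windows of 1 gene can overlap.

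In all, 9 control-only peaks touched 10 hairpins of microRNA genes, of the 919 on these chromosomes. Shared control gene-body peaks touched 34 hairpins. The control-only peaks numbered 12472 and the shared ones 26478, so these counts are not rates, and they were not tested. One was Mir33, which lies in Srebf2, the gene of the sterol-responsive factor SREBP-2. Its hairpin at chr15:82198122-82198190, plus strand, lay under a weak control-only peak of 2.04-fold and 40 reads. Another was Mir199b in Dnm1, the gene of the endocytic GTPase dynamin 1, beside a peak of 3.41-fold and 59 reads, with its hairpin at chr2:32318460-32318569, plus strand. The mature forms that the RefSeq table lists for them are shown to identify the microRNAs, with the seed, bases 2 to 8, in capitals. The peak in Srebf2 spans the whole Mir33 hairpin, and the peak in Dnm1 ends inside the Mir199b hairpin. The 3 seeds differ from each other.
miR-33-5p: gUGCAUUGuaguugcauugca
miR-33-3p: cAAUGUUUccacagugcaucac
miR-199b-3p: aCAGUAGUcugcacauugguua

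Gene bodies had a larger share of control-only peaks than gene ends. Of the control peaks in gene bodies, 32.0% (31.6 to 32.5%) were control-only, against 12.9% (12.4 to 13.4%) at gene ends and 33.7% (33.2 to 34.3%) between genes, and 29.3% over all control peaks. With control and treatment lists of equal length the gene-body share was 18.7%. The control-only gene-body peaks made up 51.03% of the 24441 control-only peaks. The reverse class was smaller on the full lists. Of 28924 treatment peaks in gene bodies, 2364 were absent from control, 8.17% (7.86 to 8.49%). This share was counted against the full, longer control list. It was not computed for lists of equal length, so it is not to be set beside the 18.7%. By chromosome, the control-only share was lowest on 11, at 29.7%, and highest on 16, at 34.6%. Fewer open sites and a weaker library cannot be told apart here, and coverage was lower in treatment at most shared peaks too, as given below. The intervals cover counting error only, and peaks of 1 gene are not independent, so they are narrower than they should be.

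Control-only gene-body peaks were the small ones of their list. Their fold enrichment had a median of 4.36 (quartiles 3.10 and 6.40), against 9.67 (5.87 and 14.6) for shared control gene-body peaks. Their median summit coverage was 87 reads (59 and 140), against 290 (154 and 566), and their median width 289 bp, against 589 bp. The share found in control only was 66.3% (64.8 to 67.8%) at folds of 2 to 3, 48.9% at 4 to 6, 21.6% at 8 to 10 and 1.39% (0.956 to 2.01%) at 20 and more. By coverage it was 76.3% under 50 reads and 0.918% (0.709 to 1.19%) at 600 reads and more. In control, 82.9% (82.2 to 83.5%) of the control-only peaks had at least 51 reads, the coverage that 10% of treatment gene-body peaks did not exceed. At least 162 reads, the median of treatment gene-body peaks, were found at 2403 of them (19.3%). These are control reads set beside treatment values, while shared pairs had a median treatment to control ratio of 0.684. Treatment coverage at the control-only peaks was not measured.

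**Figure D1:**
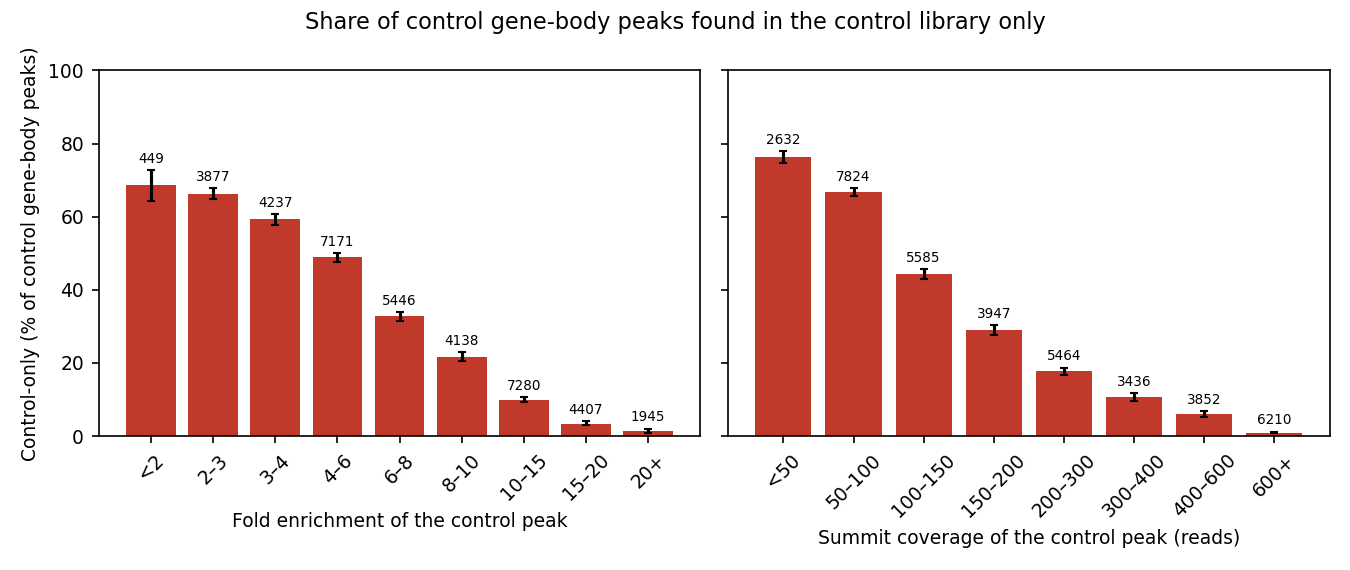
Share of control gene-body peaks found in control only (vertical axis, percent), by the fold enrichment (left) or the summit coverage in reads (right) of the control peak. Bars carry 95% Wilson intervals and the number of control gene-body peaks above them; the share is 76.3% under 50 reads and 0.918% at 600 reads and more.

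Few control gene-body peaks lay within 10 bp of the border between shared and control-only. This does not tell how close the control-only peaks came to being called in treatment, which was not measured. Only 1 control gene-body peak was shared by 10 bp or less (2.31-fold, 34 reads), and only 1 control-only peak had a treatment interval under 10 bp away (2.44-fold, 36 reads). Up to 100 bp past the limit of 1 kb from a gene end lay 94 control-only peaks with a median fold of 2.98, and up to 100 bp short of it, outside the rule, lay 105 with 2.91. The nearest treatment interval was at a median distance of 6.04 kb from a control-only peak (quartiles 2.18 and 13.7 kb). It was under 150 bp away for 24 peaks, 150 bp to 1 kb for 1641, 20 to 100 kb for 1855 and over 100 kb for 220.

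Control-only peaks were spread over many genes. They fell in 6122 host genes, 59.1% of the 10350 genes with a control gene-body peak. Of these hosts 3345 held 1, 1328 held 2, 971 held 3 or 4, 413 held 5 to 9, and 65 held 10 or more. Hosts had a median span of 50.1 kb, against 22.6 kb for the 4228 genes that had control gene-body peaks and no control-only one. The control-only share of peaks changed little with span, being 29.5% in genes of up to 10 kb, 31.5% at 30 to 100 kb and 35.7% above 300 kb. All control gene-body peaks were control-only in 1584 of the 10350 genes with such peaks, and 110 of these held 3 or more. The rest of these had only 1 or 2 control gene-body peaks. In overlapping genes a peak counts for each host, which touches 140 of the peaks.

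The list by number was led by long genes of signalling, cytoskeletal and zinc finger proteins. Inpp4b, a phosphatase of the lipid messenger PI(3,4)P2 (chromosome 8, 81342266 to 82134312), had 27 control-only peaks among 86 in control. Its body held 69 treatment peaks, of which 11 were treatment-only. Hivep3, a large zinc finger protein also called Schnurri-3 (chromosome 4, 119733759 to 120138045), had 24 of 50, with 27 treatment peaks and 1 of them treatment-only. Aopep, an aminopeptidase, had 21 of 38, and Lpp, a LIM domain protein of focal adhesions, had 19 of 45. Arhgap26, a GTPase-activating protein, had 19 of 55 and no treatment-only peak. Pdzd2, a PDZ domain protein, had 18 of 35, and Pde4d, a phosphodiesterase that breaks down cAMP, 18 of 45. Trio, an exchange factor for Rac, had 17 of 38, Snx29, a sorting nexin, 17 of 45, and Spata13, an exchange factor for Rac and Cdc42, 16 of 33. Of these 10 genes, Inpp4b at 31.4% was just under the 32.0% of all gene bodies, Arhgap26 at 34.5% just over it, and Aopep at 55.3% highest. These counts depended on the length of the control list. With lists of equal length Inpp4b held 4 control-only peaks, Hivep3 15, Aopep 10 and Lpp 10, and 10 of the 20 genes with the most remained among the leading 20.

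**Figure D2:**
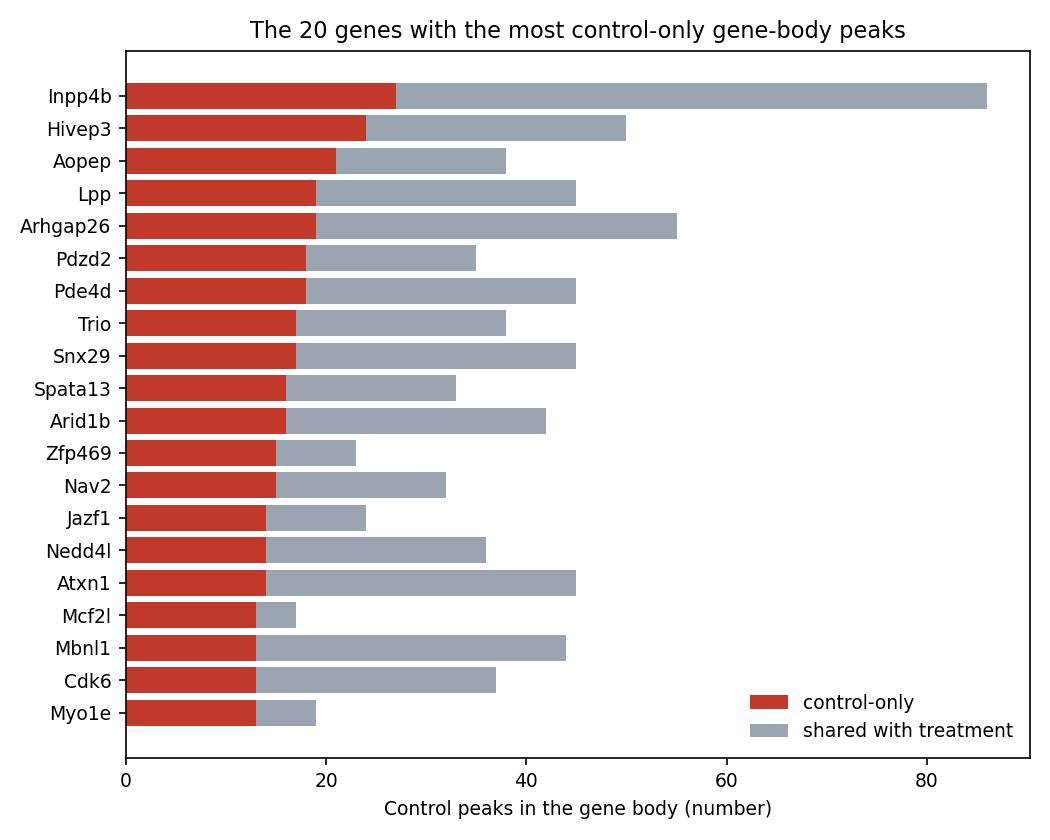
Number of control peaks in the body of each of the 20 genes with the most control-only ones, split into control-only (red) and shared with treatment (grey). Inpp4b holds 27 control-only peaks among 86, while Mcf2l holds 13 among 17 and Myo1e 13 among 19.

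The control-only peaks of these genes were unlike in size. At Inpp4b they had a median of 45 reads (lowest 32, highest 544) and a fold of 2.44. At Hivep3 the median was 139 reads (38 to 408) and 4.82-fold, at Spata13 135 reads (70 to 281) and 5.31-fold, and at Pdzd2 111.5 reads (34 to 263) and 6.11-fold. Arhgap26 had a median of 102 reads and its strongest at 528. Inpp4b therefore led by number with mostly low peaks, in a body whose highest shared peak had 1817 reads in treatment and 1788 in control.

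Ranked by density, among the 478 genes with at least 5 control-only peaks, Cd244a led. Cd244a encodes 2B4, a SLAM family receptor of NK cells and of effector and exhausted CD8+ T cells (chromosome 1, 171558718 to 171585316), and had 6 control-only peaks of 8, or 22.6 per 100 kb. In order along the chromosome their coverages were 223, 100, 256, 60, 54 and 150 reads and their folds 3.53, 2.54, 6.51, 4.03, 3.63 and 9.97. The last 5 followed each other with no shared peak between. The remaining 2 peaks, which were shared, had 330 and 211 reads in treatment, against 516 and 284 in control.

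Spns2, a transporter that exports sphingosine 1-phosphate, had 6 of 8 (15.6 per 100 kb) with 42 to 220 reads. Adprhl1 had 5 of 6, Dnaic2, a subunit of ciliary dynein, 5 of 6, and Adamts7, a secreted metalloprotease, 5 of 5. Rasgrp1, which couples the antigen receptor to Ras, had 8 of 14 (12.7 per 100 kb) and 3 treatment-only peaks. Cntfr, a receptor for ciliary neurotrophic factor, had 5 of 7, Tfdp1, the E2F partner DP1, 5 of 5, and Ccdc172 5 of 5. At Tfdp1 the peaks had 383, 32, 139, 124 and 48 reads. Of these 8 genes, all but Rasgrp1 and Ccdc172 lacked a treatment-only peak in the body. On lists of equal length Cd244a and Spns2 held 3 control-only peaks each. With a minimum of 3 peaks in place of 5, Cd244a stayed among the leading 10, then headed by Gpr4 (4 peaks, 34.4 per 100 kb), Rflna and Irx4.

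Among the 844 genes with at least 10 control gene-body peaks, the control-only share had a median of 28.6% (quartiles 18.2 and 40%). It reached 60% in 39 of them and was 0 in 26. Tead1, a transcription factor of the Hippo pathway, stood highest, with 10 of 11. Its peaks had 40 to 192 reads, and the 1 shared peak had 263 reads in treatment against 690 in control. On lists of equal length it held 4 control-only peaks, and Mcf2l 7. Then came Arhgap24, a Rac-specific GTPase-activating protein, Cdh4, a cadherin, and Ppfibp1, a liprin, each with 8 of 10. Mcf2l had 13 of 17, Lipc, hepatic lipase, and Dscaml1, a neuronal adhesion protein, 8 of 11 each, and Vps8, a subunit of an endosomal tethering complex, 12 of 17. Clasp2, a microtubule-binding protein, Pde7b, a cAMP phosphodiesterase, and Enox1 had 7 of 10. At the other end, named after their values were seen, Tgfbr2, a receptor for TGF-beta, had 0 of 17 and Cdk19, a kinase of the Mediator complex, 0 of 14. Tgfbr2 had 15 treatment peaks in its body, and its 15 paired shared peaks had a median of 166 reads in treatment and 187 in control.

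In some genes the control-only peaks followed one another without a shared peak between. A run of 5 or more was found in 94 genes, and the longest held 8, at Mcf2l over 46.8 kb, at Lrrk1, a protein kinase, over 73.6 kb, and at Cacna1a, a calcium channel subunit, over 99.2 kb. Among the named genes, runs of 7 were found at Hivep3 over 44.9 kb, at Sv2b, a synaptic vesicle protein, over 119.6 kb, at Tead1 over 148.9 kb and at Dscam over 254.02 kb. At Mcf2l the 13 control-only peaks had 43 to 202 reads, and 7 of them had more than 120. Along the chromosome 1 control-only peak came first, then 1 shared peak, the run of 8, the other 3 shared peaks and 4 more control-only ones. At Inpp4b, with the most control-only peaks, the longest run was 4.

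**Figure D3:**
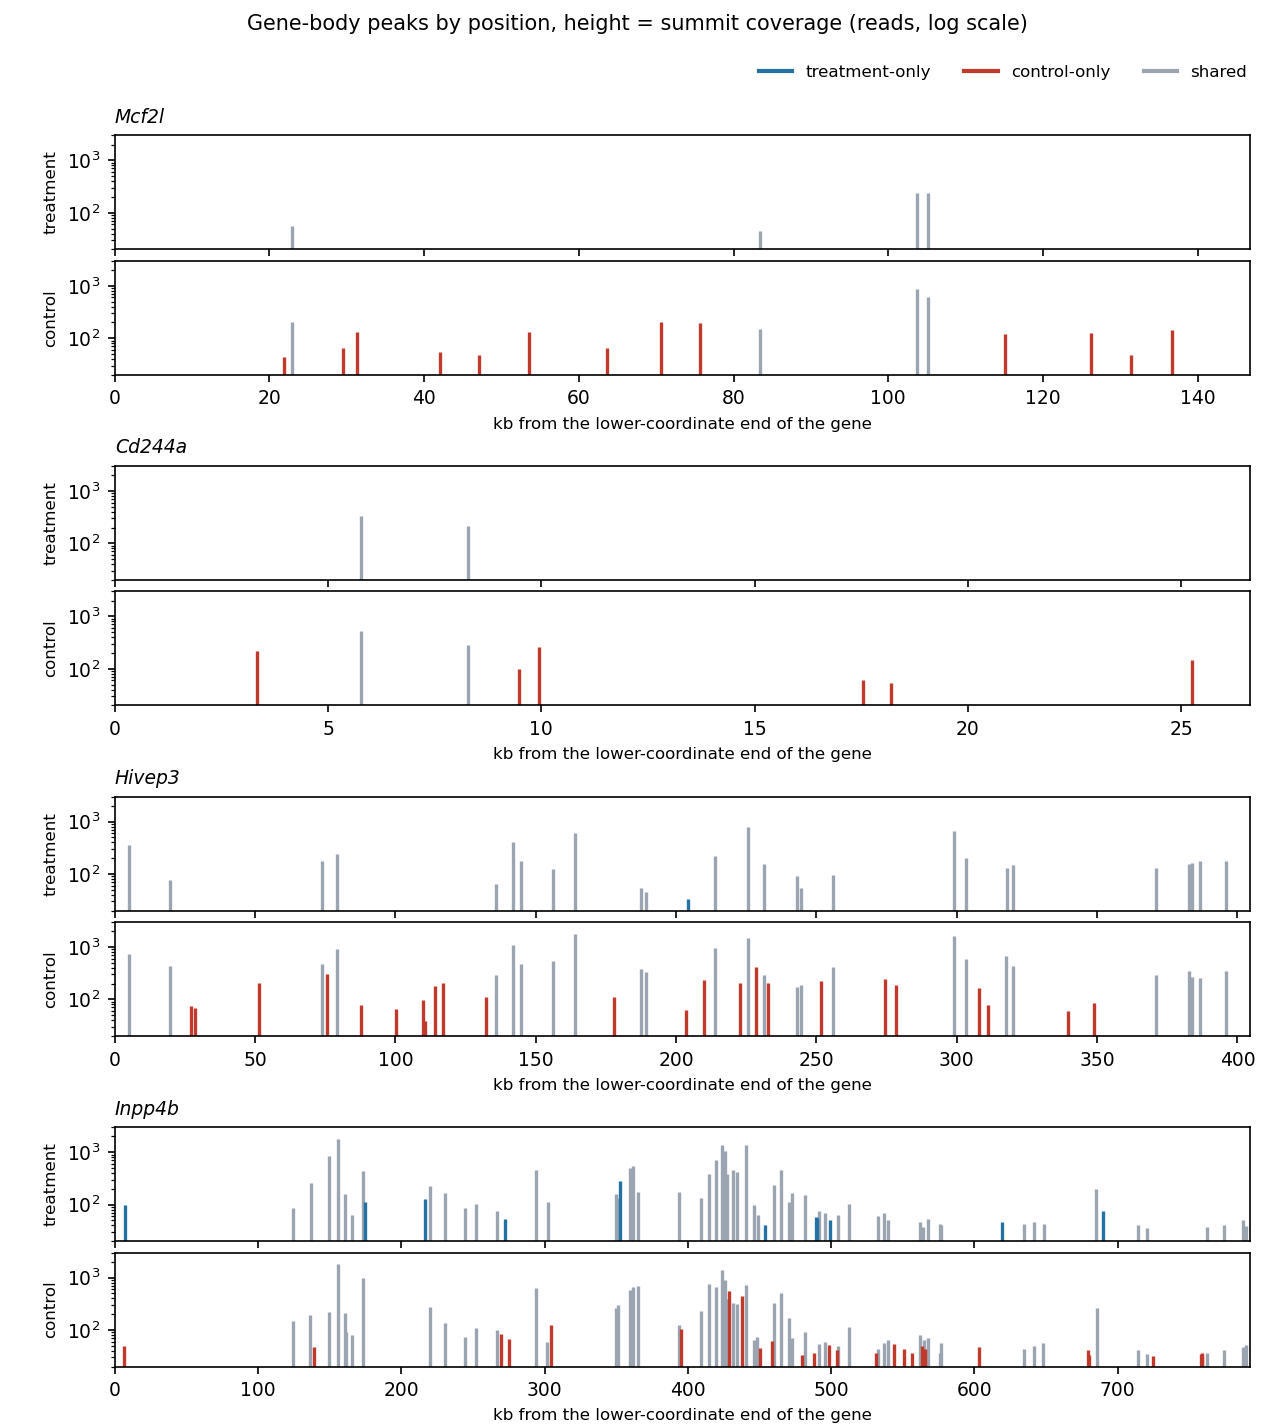
Gene-body peaks of Mcf2l, Cd244a, Hivep3 and Inpp4b by distance from the lower-coordinate end of the gene (horizontal axis, kb), treatment above control; line height is summit coverage in reads on a log scale, red is control-only, blue treatment-only and grey shared. In Mcf2l and Cd244a the treatment row holds 4 and 2 peaks, while in Inpp4b it holds 69.

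Coverage at shared peaks was not used to choose the control-only peaks, although a pair exists only where a treatment peak was called, and it was lower in treatment at most pairs. Over 26279 pairs of shared gene-body peaks, each the best overlap of the other, the median was 179 reads in treatment and 290 in control. The median log2 ratio of treatment to control was −0.55 (quartiles −0.95 and −0.19), a ratio of 0.684, and 84.4% of pairs were lower in treatment. The median was −0.15 at a control coverage under 100 reads, where 59.7% of pairs were lower in treatment, −0.61 at 100 to 200, −0.68 at 200 to 400 and −0.53 at 400 and more. In genes with 5 or more control gene-body peaks the ratio went with the control-only share. Pairs had a median log2 ratio of −0.35 in genes with no control-only peak, −0.44 at a share under 20%, −0.54 at 20 to 40%, −0.76 at 40 to 60% and −0.78 at 60% and above. Among pairs with a control coverage of 200 to 400 reads, a limit chosen after seeing the data, these were −0.43, −0.55, −0.66, −0.92 and −0.85. The order of the last 2 classes thus turned, and the quartiles of neighbouring classes overlapped throughout. No test was made of this trend.

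**Figure D4:**
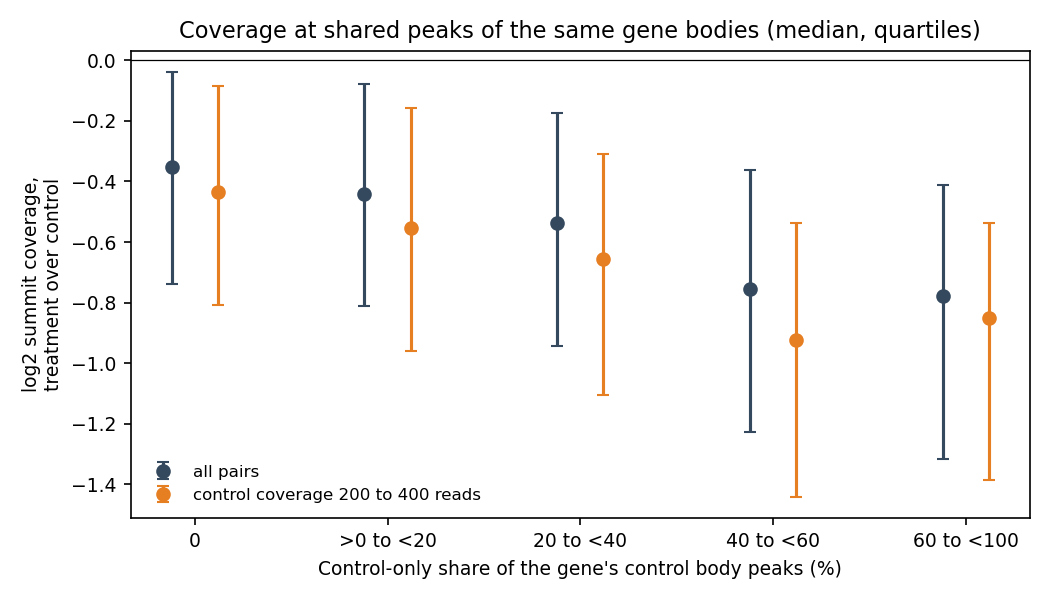
Log2 ratio of summit coverage, treatment over control, at shared gene-body peaks (vertical axis) by the control-only share of the same gene's control body peaks (horizontal axis, percent), as medians with quartiles. The median runs from −0.35 in genes without a control-only peak to −0.78 at a share of 60% and above, and the quartiles overlap.

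The leading genes divided by this measure. At Myo1e, a class I myosin with 13 of 19 control-only peaks, the 6 shared peaks had 228, 51, 191, 264, 78 and 181 reads in treatment, against 790, 324, 1234, 498, 374 and 872 in control, a median log2 ratio of −2.26. At Mcf2l the 4 shared peaks had 57, 45, 241 and 238 reads in treatment, against 200, 147, 874 and 601 in control, a median of −1.76. Every pair of both genes was lower in treatment. At Hivep3 the median over 26 pairs was −1.47, at Vps8 −1.42 over 5, at Lrrk1 −1.43 over 6, at Snx29 −0.95 over 28, at Lpp −0.97 over 26 and at Pdzd2 −0.93 over 17. All of these lay below the −0.55 of all gene bodies. At Inpp4b it was −0.06 over 58 pairs, with medians of 112 reads in treatment and 105 in control. Pde4d at −0.34, Spata13 at −0.46, Trio at −0.50, Arhgap26 at −0.48 and Cd244a at −0.54 lay at or above the value of all gene bodies. Over all pairs in the 65 genes with 10 or more control-only peaks the median was −0.63, against −0.59 in hosts of 5 to 9, −0.56 in hosts of 2 to 4 and −0.55 in hosts of 1.

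Groups of genes by function were set against the 32.0% of all gene bodies. The lists were drawn up with earlier results of these data known. The naive and memory regulators had the lowest share, 66 of 324 control gene-body peaks, 20.4% (16.3 to 25.1%), and 13 of the 18 genes with such peaks held a control-only one, against 59.1% of all genes with a control gene-body peak. The share of genes depends on how many peaks each has. Foxp1, a factor that keeps T cells quiescent, had 11 of 66, Bcl2, a survival protein, 9 of 36, and Bcl11b, a factor of T lineage identity, 8 of 31. The treatment library had 301 peaks in the bodies of these genes, 41 of them treatment-only. Their shared pairs had a median log2 ratio of −0.15. At Bcl2 the control-only peaks were between 1.78-fold and 4.87-fold, with a median of 89 reads (34 to 328).

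T cell receptor signalling genes had 93 of 342, 27.2% (22.8 to 32.1%), an interval that holds the background. Ptprc, the phosphatase CD45, had 10 of 28, with 32, 32, 35, 44, 47, 49, 51, 70, 75 and 235 reads, Rasgrp1 had 8 of 14, and Fyn, a Src family kinase, 8 of 38. Effector and exhaustion regulators were near the background as well, with 43 of 131, 32.8% (25.4 to 41.3%). In that list Cd244a had 6 of 8, Tox2, a relative of the exhaustion factor Tox, 6 of 10, and Runx3, a factor of the CD8 lineage, 4 of 12. The Tox2 shared peaks had 670, 236, 682 and 48 reads in treatment, against 1462, 711, 1085 and 286 in control, so all 4 were lower in treatment. Cytokine receptor and JAK-STAT genes had 42 of 165, 25.5% (19.4 to 32.6%), with Jak1 at 6 of 25, Il12rb2 at 4 of 10 and Il12rb1, the chain it pairs with, at 3 of 5.

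Among signalling enzymes, the phosphoinositide and diacylglycerol list was below the background, with 92 of 384, 24% (20 to 28.5%), and 21.8% (17.5 to 26.8%) without Inpp4b. Inpp4b was left out because it held the most, and at 31.4% its removal could only lower the share. Prkch and Prkca, which are protein kinases C, had 8 of 34 and 8 of 36. cAMP phosphodiesterases and adenylate cyclases had 55 of 181, 30.4% (24.2 to 37.4%). Beside Pde4d, Pde7b had 7 of 10 and Adcy3, a cyclase that makes cAMP, 4 of 6. The regulators of small GTPases of the Rac and Cdc42 family were the list with the most control-only peaks, 184 of 554, but at 33.2% (29.4 to 37.2%) they were near the background. Elmo1, which acts with Dock proteins on Rac, had 13 of 33. Adhesion and cytoskeleton genes had 100 of 327, 30.6% (25.8 to 35.8%), with Pard3, a polarity protein, at 9 of 27 beside Lpp and Myo1e.

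SMAD, TGF-beta and BMP signalling genes had 51 of 195, 26.2% (20.5 to 32.7%), and Hivep3 gave 24 of these. Without Hivep3 the share was 18.6% (13.1 to 25.7%). Hivep3 was left out because it held the most, and at 24 of 50 its removal could only lower the share. Smad3, which carries TGF-beta signals, had 6 of 18 and Smad6, an inhibitor of BMP signals, 4 of 5. Ubiquitin ligases of T cell tolerance had 35 of 120, 29.2% (21.8 to 37.8%), with Nedd4l at 14 of 36, Wwp1 at 5 of 5 and Traf3 at 4 of 9. The 5 Wwp1 peaks had 142, 178, 55, 140 and 44 reads, and its body held no treatment peak. Chromatin and DNA methylation regulators had 94 of 351, 26.8% (22.4 to 31.6%), with Arid1b, a subunit of the BAF remodelling complex, at 16 of 42 and Chd7, a remodeller, at 7 of 24. Cell cycle and DNA repair genes had 48 of 163, 29.4% (23 to 36.9%), with Cdk6 at 13 of 37, Rad51b at 11 of 29 and Ccnd3, cyclin D3, at 6 of 13. Ccnd3 also had 6 treatment-only peaks.

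Glucose and lipid metabolism genes had 51 of 135, 37.8% (30.04 to 46.2%), an interval that holds the background, and 21 of the 25 genes with control gene-body peaks held a control-only one, beside the 59.1% of all genes. Srebf2 had 5 of 11, with 50, 305, 42, 40 and 45 reads, and Pfkp, a glycolytic phosphofructokinase, 4 of 10. The highest share belonged to long neuronal genes not expected to be active in T cells, with 56 of 122, 45.9% (37.3 to 54.7%). Of the 82 treatment peaks in their bodies 16 were treatment-only, beside 8.17% over all gene bodies. Rbfox3, the neuronal antigen NeuN, had 10 of 19, Dscam, an adhesion protein, 7 of 8, and Nrxn2, a synaptic adhesion protein, 6 of 12. These genes were poor in peaks, with 0.267 control gene-body peaks per 100 kb, against 3.95 over all genes, and their control gene-body peaks had a median of 97 reads, against 192. In the range of 4-fold to 8-fold, chosen after seeing the data, their share was 44.9% (31.9 to 58.7%), against 41.9% of all gene bodies, while that of the naive and memory list was 9.48% (5.38 to 16.2%) and that of the phosphoinositide list 24.4% (17.8 to 32.6%). The naive and memory list had a median of 321 reads at its control gene-body peaks.

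**Figure D5:**
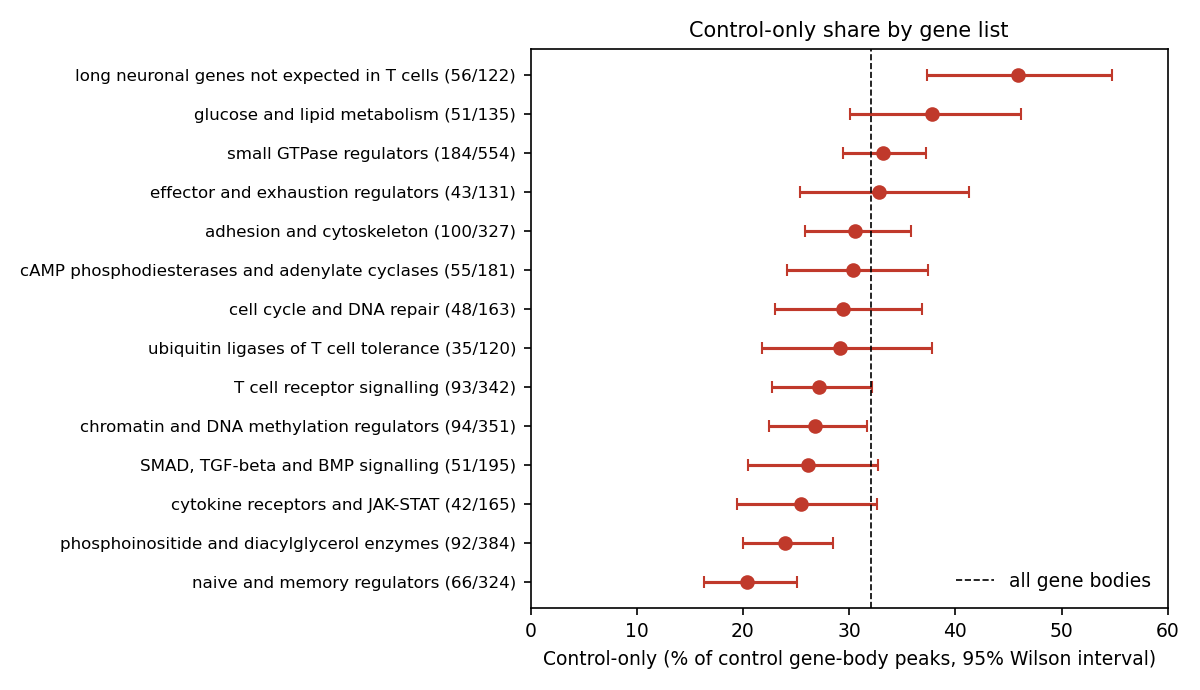
Control-only share of control gene-body peaks (horizontal axis, percent, with 95% Wilson intervals) for each of 14 gene lists, with control-only and all control peaks in brackets, and the share of all gene bodies as a dashed line at 32.0%. Naive and memory regulators stand lowest at 20.4% and long neuronal genes highest at 45.9%.

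The 10 strongest control-only gene-body peaks by fold lay in 10 genes, which held between 1 (Ly86) and 11 (Rad51b) control-only peaks. The peak with the highest fold lay in Cabcoco1 (chromosome 10, 68512249 to 68512930), at 24.9-fold and 451 reads, and the nearest treatment interval was 28.3 kb away. In Ly86, which encodes the B cell and myeloid protein MD-1, a peak of 23.7-fold and 384 reads (chromosome 13, 37403444 to 37403998) was the only control-only one of 3. Cep85l had one of 23.7-fold and 381 reads, and Nid2, a basement membrane protein, one of 22.9-fold and 440 reads. Ifnlr1, the receptor chain for interferon lambda, had one of 22.9-fold and 355 reads (chromosome 4, 135692807 to 135693383). Fmnl2, a formin, had one of 22.8-fold, Slc12a8 one of 22.8-fold and Cdkal1, an enzyme that modifies transfer RNA, one of 22.8-fold. Utrn, the dystrophin relative utrophin, had one of 22.7-fold and 456 reads at 76.3 kb from a treatment interval. The peak in Rad51b, a recombination protein, was 22.7-fold with 344 reads. These 10 peaks all had 344 reads or more in control, beside a median of 162 reads in treatment at the treatment gene-body peaks.

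The ends of the host genes were mostly open in both libraries. Both libraries had a gene-end peak at 4514 of 6122 hosts, 73.7%, against 2971 of 4228 genes with control gene-body peaks but no control-only one, 70.3%. It was present in control and not in treatment at 352 hosts, 5.75%, against 198 of the others, 4.68%. The reverse was seen at 45 hosts. Of the 65 genes with 10 or more control-only peaks, 55 had an end peak in both libraries. Hivep3, Mcf2l and Inpp4b were among these, and Cd244a had one in both libraries as well, while Pde4d, Nedd4l and Rbfox3 had an end peak in neither, and Dscam in control only. A treatment-only peak lay in the body of 1100 hosts, and in 108 these outnumbered the control-only ones.

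Within genes, control-only peaks were spread along the whole span. For the 9917 whose host strand was known from the start-site table, the median position was 0.501 of the span from the 5′ end, against 0.478 for 21195 shared gene-body peaks. The control-only share was 30.04% in the first 10% of the span and 33.2% in the last 10%, and 28.3% at 1 to 2 kb from the 5′ end against 34.3% beyond 200 kb. The nearest other control peak lay at a median of 4.35 kb from a control-only peak and 4.14 kb from a shared one. Another control-only peak lay within 5 kb of 23.6% of control-only peaks and of 19.2% of shared ones. These shares differ by a few percentage points, and were not tested.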

How the data were processed

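ATAC-seq peak lists of 1 treatment and 1 control library of mouse CD8+ T cells were used, grouped by title. Per the submitters' processing notes, the authors worked on build mm10 with MACS2, whose version is not named, and with Picard 2.20, Bowtie2 2.3 and cutadapt 2.5. Their settings, including duplicate handling and the transposase shift, are not given in the sources used here. Peaks were called per library. Each deposited peak carries the authors' score, and their fold enrichment, which is a ratio to local background. The deposited lists also hold each peak's significance on a −log10 scale, as a p-value and as a q-value, and the lowest q-value there was 2.00 on that scale. The number of distinct reads behind each library sets how many weak peaks can be called, and it was not given here. Summit coverage was the whole number that gives the deposited fold and −log10 p to within 0.001. On 20000 peaks simulated with the same formulas it came back in 100%. That simulation checks the calculation only, and not whether the authors' software used these formulas. Gene spans came from RefSeq (GRCm38.p6, the assembly of mm10), with 20665 protein-coding genes on chromosomes 1 to 19. Computation used Python 3.11.15, pandas 2.3.3, numpy 2.4.6 and scipy 1.17.1. With no genome at hand, the planned motif count ran on RefSeq promoter windows only, without the CTCF letters and with TATAAA added. The named genes are the 10 with the most control-only peaks, the 10 with the most per 100 kb among those with at least 5, the 3 leading ones of each list, the hosts of the 10 strongest peaks, the 5 with the longest runs, and the 10 with the highest share among those with at least 10 control gene-body peaks. The peaks, lists and rules were chosen with earlier results of these data known. No test was made, since each group has 1 library. Some genes that these rules name are not reported here.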

Additional observations from a re-analysis of the deposited data

How the results depend on the processing

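The number of control-only gene-body peaks stayed within 1.5 times of 12472 in all alternatives but one. With the control list reduced to the 63351 peaks of highest −log10 p-value, as many as the treatment list, it was 5344 in 3593 host genes, 18.7% of control gene-body peaks. The share was 37.8% when sharing needed 50% of both intervals, 36.4% when it needed summits within 150 bp, 27.7% when no treatment interval could lie within 1 kb, and 28.7% when only the control list was held to a q-value of 10 or more on the −log10 scale. At 5 or 10 in both lists, at more than 5 kb from gene ends, in exactly 1 span and with X added it was between 31.9% and 32.5%. The equal-length lists moved the count by over 1.5 times at all but 10 of the 75 named genes, and 10 of the 20 leading genes remained; under the 8 other alternatives 64 to 74 named genes stayed within that range and 15 to 19 leading genes remained. The naive and memory list lay below the share of all gene bodies and the neuronal list above it under every alternative run for them, with 7.69% and 23.2% against 18.7% on equal-length lists. The median log2 coverage ratio at shared peaks of host genes was −0.57, the same when pairs were made by summits, and −0.70 at a control coverage of 200 to 400 reads. The cause of these moves was not tested. No paired analysis was possible because each group has 1 library. Weak peaks are limited by depth, which is not stated.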
